A study of Mus musculus with 67 samples.

Results

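Pax3, Pax6 and Pax7 encode related transcription factors of the neural tube, and their loci were followed here by chromatin accessibility. The members are the accessible elements whose nearest annotated gene was Pax3, Pax6 or Pax7. There were 50 of them among 111638 elements with values, with 20 at Pax3, 8 at Pax6 and 22 at Pax7. Another 12 of the 62 elements annotated to these genes were not in the table of values and were not analysed here. CaTS-ATAC, in which fixed cells are transposed, stained for intracellular transcription factors and then sorted, was applied to mouse HM1 embryonic stem cells differentiated toward the spinal cord. The 67 samples make 25 conditions, 17 with 3 replicates and 8 with 2, and all come from the same stem cell line, with replicates being independent differentiations. Neuromesodermal progenitors (NMPs) were taken at day 3 without SAG, an agonist of Shh signalling. Neural progenitors (NPs) were taken at days 4, 5 and 6. All were sorted as SOX2-positive cells. The p0-1 and p2 NPs were both defined by PAX6 protein and separated by NKX6.1, pMN by OLIG2 and p3 by NKX2.2 without OLIG2. From day 3 every NP culture also received retinoic acid. The p0-1 NPs came from 0 and 10 nM SAG, p2 from 10 and 100 nM, and pMN and p3 from 100 and 500 nM. Thus p0-1 shared no concentration with pMN or p3, and only 10 nM with p2. In comparisons with p0-1, cell type and SAG concentration cannot be fully told apart. Samples of a cell type and day are pooled over the SAG concentrations below, unless stated. Samples with the same replicate number at different concentrations are therefore not independent. The main fits, with their SE and adjusted p, and each SD and n nevertheless count them as separate samples. On day 6 all p3 and pMN samples come from replicates 2 and 3, so n there is larger than the number of differentiations.

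PAX3 and PAX7 are paralogous paired-box and homeodomain factors. In the neural tube they mark dorsal progenitors and are repressed ventrally by Shh signalling. PAX6 spans intermediate and ventral progenitors and is opposed at its ventral limit by NKX2.2 in the p3 domain. Their genes carry long introns, and Pax6 also has known distal regulatory elements inside the neighbouring Elp4 gene. Because PAX6 protein defined the p0-1 and p2 gates, a difference at Pax6 between these and other cells shares the gene with the sort, whereas pMN and p3 were not defined by it. In bulk samples fewer cells with an open element and less accessibility per cell cannot be told apart.

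Values are normalized counts, that is reads in an element divided by the size factor of the sample. The number of reads inside elements ran from 9298160 to 29985325 per sample, so that a normalized count of 100 rests on about as many reads. Differences are given on the log2 scale of the variance-stabilized values, which understates the fold of low elements. An element was tested where the mean of the compared samples was above 100 normalized counts, and it was called at a limma adjusted p under 0.01 with an absolute difference above 1. The filter was passed at least once by 32 of the 50 elements and in all 11 comparisons by 14, while 18 were never tested. An element that passed through 1 high group had to differ, so counts of calls among tested elements are a description. At the sample level, p0-1 at 10 nM on day 4 replicate 3 and p2 at 100 nM on day 6 replicate 3 stood apart, each with a mean correlation of 0.919 to the other samples of its cell type and day. Replicates 2 and 3 of p0-1 at 10 nM on day 4 were low at several distal elements. Without them 12 elements of the 3 loci were called from NMPs to p0-1 in place of 8, and 5 between p3 and p0-1 on day 4 in place of 4. From day 4 to day 6 in p0-1 it was 2, as with them, and for the difference of the changes 3 in place of 2. These samples were picked by low values at such elements, which favours more calls in advance, and the shares over all elements without them are not given. Replicate 2, with a mean correlation of 0.947, did not stand apart as a whole, and 0 nM replicate 1 was lower, at 0.938. Without the p2 library 3 elements were called between p2 and p0-1, the number with it.

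All 3 genes lie on mm10, with Pax3 at chr1:78101267-78197134 on the minus strand, Pax6 at chr2:105668900-105697364 on the plus strand and Pax7 at chr4:139737062-139833528 on the minus strand (GENCODE vM21). The distance in kb from the annotated transcription start site (TSS), positive downstream, names each element below. The 50 elements ranged from -43.8 kb to +224.7 kb. The annotation placed 30 in introns, 16 in intergenic sequence, 2 in promoter-TSS regions of Pax6, 1 in exon 1 of Pax3 and 1 at the end of Pax6. Of the 8 Pax6 elements, 4 were in intron 9 of Elp4. Per kb of element, the median of the mean level over all samples was 282 normalized counts at Pax6, 70.7 at Pax3 and 76.5 at Pax7.

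**Figure D1:**
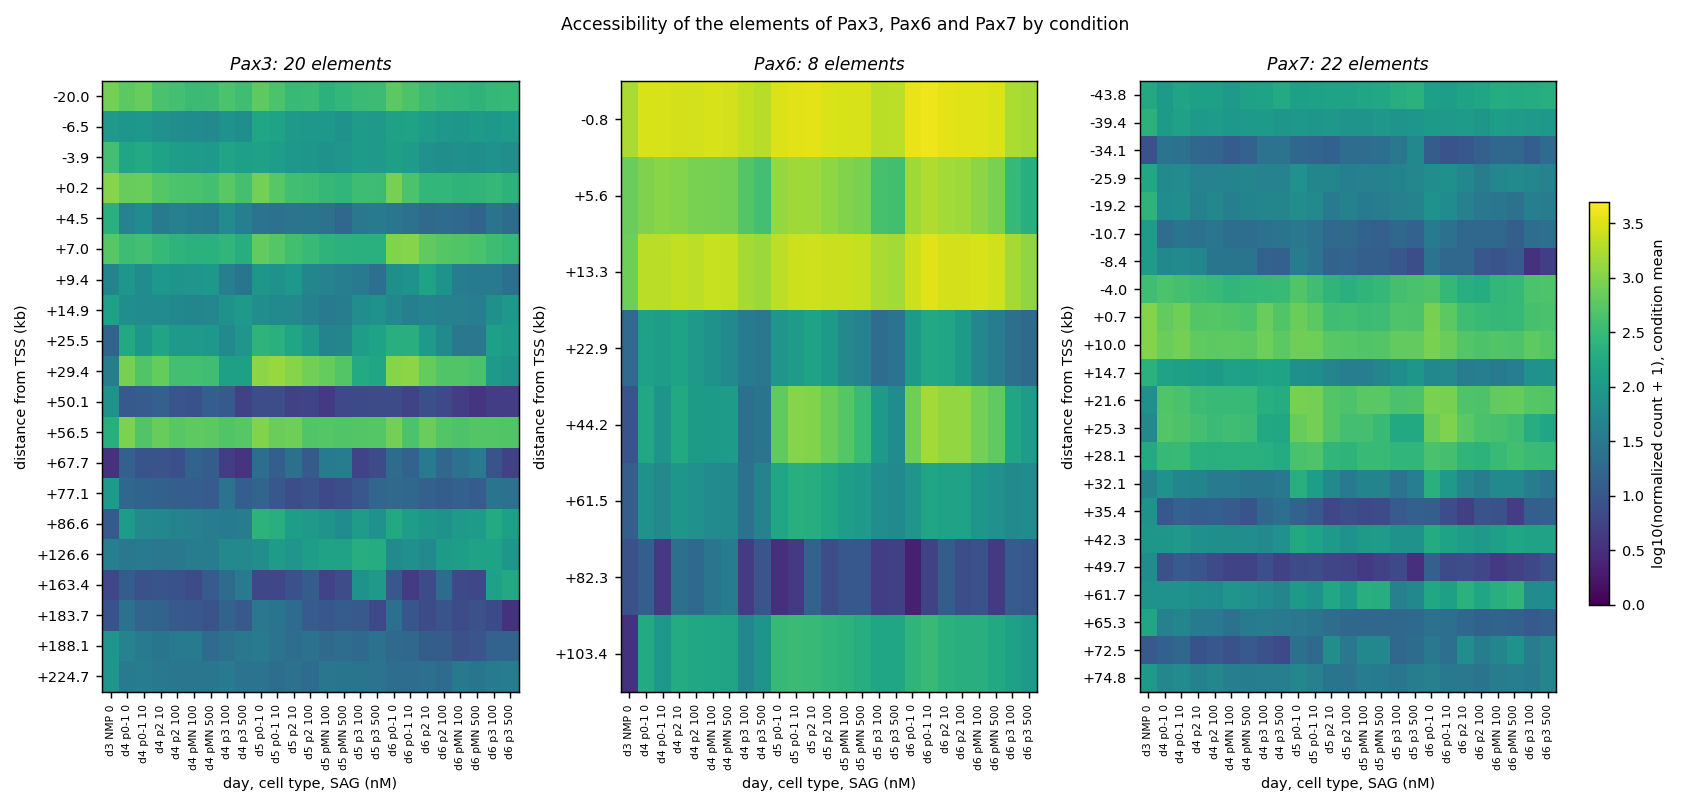
Each row is an element, ordered by its distance in kb from the TSS, and each column a condition given as day, cell type and SAG concentration in nM. Color is log10 of the condition mean normalized count plus 1. Columns of p3 are darker at Pax6 +5.6 and +44.2 kb, Pax3 +29.4 kb and Pax7 +25.3 kb, and Pax3 +163.4 kb is lighter in p3.

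The central 300 bp of 4 elements are shown as examples, chosen after their values were seen, of distal elements at which the p3 samples of day 6 overlapped no other NP sample of that day. Other elements shared this, and Pax3 +163.4 kb was not tested. Capitals mark matches, on either strand, to the 6 motifs searched, namely TAATTA (homeodomain), TGTTTAC (forkhead), ACAATGG (SOX), CAGATG (E-box), GACCACCCA (GLI) and CACTTGA (NKX2). The letters are the plus strand of GRCm38.p6, the build of mm10. The Pax6 +44.2 kb element lies in Elp4 intron 9, Pax3 +29.4 kb and Pax7 +25.3 kb each lie in intron 4 of their own gene, and Pax3 +163.4 kb lies in intergenic sequence downstream of Pax3.
Pax6 +44.2 kb, chr2:105720160-105720459: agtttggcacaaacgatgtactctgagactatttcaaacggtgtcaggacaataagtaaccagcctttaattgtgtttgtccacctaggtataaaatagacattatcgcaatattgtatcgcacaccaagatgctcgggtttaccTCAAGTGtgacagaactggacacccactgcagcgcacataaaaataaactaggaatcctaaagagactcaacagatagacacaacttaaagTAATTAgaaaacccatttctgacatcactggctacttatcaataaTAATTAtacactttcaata
Pax3 +29.4 kb, chr1:78167608-78167907: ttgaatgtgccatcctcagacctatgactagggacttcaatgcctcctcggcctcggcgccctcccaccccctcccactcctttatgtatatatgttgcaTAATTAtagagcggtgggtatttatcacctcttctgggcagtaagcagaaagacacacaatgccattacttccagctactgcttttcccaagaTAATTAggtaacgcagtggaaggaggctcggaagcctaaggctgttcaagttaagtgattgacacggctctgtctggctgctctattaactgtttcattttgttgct
Pax7 +25.3 kb, chr4:139807520-139807819: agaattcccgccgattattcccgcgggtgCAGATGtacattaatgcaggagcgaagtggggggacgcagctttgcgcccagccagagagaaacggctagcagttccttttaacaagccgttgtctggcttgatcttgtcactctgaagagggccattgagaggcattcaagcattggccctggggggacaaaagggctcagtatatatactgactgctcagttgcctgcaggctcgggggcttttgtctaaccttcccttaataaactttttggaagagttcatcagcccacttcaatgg
Pax3 +163.4 kb, chr1:78033547-78033846: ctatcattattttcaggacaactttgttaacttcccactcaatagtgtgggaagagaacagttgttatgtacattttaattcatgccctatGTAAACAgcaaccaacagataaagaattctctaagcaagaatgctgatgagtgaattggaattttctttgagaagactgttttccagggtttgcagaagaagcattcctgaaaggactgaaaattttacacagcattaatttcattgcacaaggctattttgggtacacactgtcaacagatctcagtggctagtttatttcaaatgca
The Pax6 +44.2 kb window holds TAATTA 2 times and CACTTGA 1 time on the minus strand. In the Pax3 +29.4 kb window TAATTA occurs 2 times, and in the Pax7 +25.3 kb window CAGATG occurs 1 time. The Pax3 +163.4 kb window holds TGTTTAC 1 time, on the minus strand. Over the same central windows of all 111638 elements, TAATTA was in 7.85%, TGTTTAC in 4.96%, CACTTGA in 4.11%, CAGATG in 25.7%, ACAATGG in 7.43% and GACCACCCA in 0.392%. Among the 50 windows of the 3 loci, TAATTA was in 7, TGTTTAC in 2, CACTTGA in 4, CAGATG in 12, ACAATGG in 4 and GACCACCCA in 0. A match is a description of letters, and the center of an element need not be its most accessible base.

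The element nearest the Pax6 TSS, at -0.8 kb (chr2:105673776-105676787), had the most reads per kb of the 50 and was lowest in p3 among the NPs. In NMPs it held 2009.7, 1565 and 1497 normalized counts. On day 6 it held 3864, 3567, 3707, 4406 and 3904 in p0-1 and 1593, 1966, 1484 and 1740.0 in p3. The groups did not overlap, and the difference was -1.20 ± 0.09 (SE, adjusted p = 1.39e-06). The means were 3889 ± 318 (SD, n = 5) and 1696 ± 209 (SD, n = 4). Mean levels in p0-1 were 2993, 3336 and 3889 on days 4, 5 and 6, whereas in p3 they were 2197, 2079 and 1696. The p3 mean of day 6 lay within the range of NMPs, 1497 to 2009.7, and 1 of the 4 p3 samples was below it. The order of day 6 means was p0-1, p2 (3387 ± 204 (SD, n = 6)), pMN (3208 ± 131 (SD, n = 4)) and p3, and the ranges of p2 and pMN overlapped, as did those of p0-1 and p2.

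The +5.6 kb element (chr2:105680198-105683277), which overlaps an annotated Pax6 promoter as well as coding and untranslated exons, diverged between p3 and the other NPs with time. In NMPs it held 715, 798 and 622 normalized counts. By day 6 it was 1469, 1524, 1698, 1941 and 1849 in p0-1 and 345, 256, 215 and 211 in p3. All p3 samples were below all NMP samples, and all p0-1 samples above them. The difference of p3 from p0-1 was -1.09 ± 0.17 (SE, adjusted p = 3.87e-04) on day 4, -1.75 ± 0.08 (SE, adjusted p = 1.11e-09) on day 5 and -2.68 ± 0.15 (SE, adjusted p = 2.45e-07) on day 6. The change from day 4 to day 6 in p3 minus that in p0-1 was -1.59 ± 0.24 (SE, adjusted p = 5.87e-05), and it held under all 11 alternatives to the test that kept the difference threshold of 1. Against pMN, which was not sorted on PAX6, p3 had a difference of -1.93 ± 0.19 (SE, adjusted p = 3.00e-05), with pMN samples at 1322, 963, 1004 and 775.

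The +13.3 kb element (chr2:105687273-105691534), in intron 7 of Pax6, was higher in NPs than in NMPs. It rose from 764 ± 112 (SD, n = 3) in NMPs to 2071 ± 172 (SD, n = 6) in p0-1 on day 4, a difference of 1.43 ± 0.14 (SE, adjusted p = 4.73e-07). In p3 on day 4 it held 1533 ± 118 (SD, n = 5), with a difference from NMPs of 0.999 ± 0.12 (SE, adjusted p = 6.31e-07), which lies just short of the threshold of 1. On day 6 the p3 samples, 1712, 1449.5, 1283 and 1172, were all below those of p0-1, 2631, 2647, 3122, 3538 and 3432, and the difference was -1.13 ± 0.13 (SE, adjusted p = 2.81e-05).

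**Figure D2:**
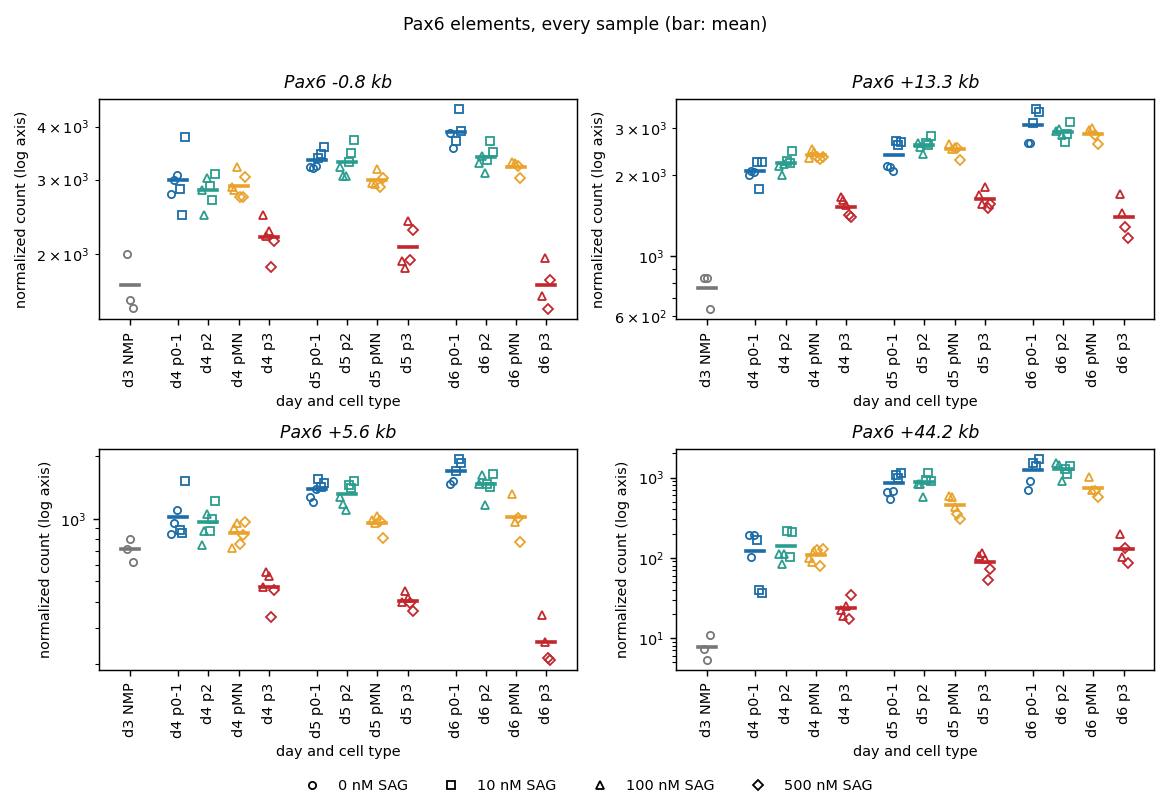
Normalized counts on a log axis for 4 Pax6 elements in every sample, by day (d) and cell type, with marker shapes for the SAG concentration and bars for the mean. The p3 samples are below every other NP sample of the same day in the -0.8 and +5.6 kb panels on days 5 and 6, and +44.2 kb rises from 5.4 to 10.8 in NMPs to 693 to 1709 in p0-1 on day 6.

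The element at +44.2 kb in Elp4 (chr2:105719376-105721243) showed the widest range of the Pax6 locus. It was near closed in NMPs, at 7.27, 5.4 and 10.8 normalized counts. In p0-1 it held 36.5, 133 and 191 on day 4, 540.0, 835 and 1147 on day 5 (lowest, median and highest of 6 samples each). On day 6 its values were 693, 905, 1495, 1373 and 1709. The rise from day 4 to day 6 in p0-1 was 3.38 ± 0.40 (SE, adjusted p = 1.01e-05). The low day 4 samples were replicates 2 and 3 at 10 nM SAG, with 40.1 and 36.5, and the day 4 and day 6 ranges did not overlap. In p3 it was 22.2, 19, 25, 17.2 and 34.5 on day 4 and 196, 102, 132 and 86.4 on day 6. The day 6 difference of p3 from p0-1 was -3.12 ± 0.29 (SE, adjusted p = 6.94e-06) and from pMN -2.43 ± 0.25 (SE, adjusted p = 3.59e-05). In the comparison of the changes from day 4 to day 6, that in p3 minus that in p0-1, -1.42, was not called (adjusted p = 0.0701).

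The other elements in Elp4 had fewer reads. The +103.4 kb element (chr2:105779247-105779869) held 1.08 to 3.64 normalized counts in NMPs, that is a few reads, and 274, 249, 338, 320.4 and 296 in p0-1 on day 6. The p3 samples on day 6 held 168, 95.6, 155 and 52.4, below all p0-1 samples, with a difference of -1.35 ± 0.27 (SE, adjusted p = 0.00223). This call was lost with replicate means (adjusted p = 0.0148) and with 1 SAG concentration per group, and the difference was -0.89 without replicate 3. The change from day 4 to day 6 in p3 minus that in p0-1 was -0.44 ± 0.76 (SE, adjusted p = 0.844), and its sign depended on 1 library, as given among the limits. The +61.5 kb element was lower in p3 on day 5, at 61.7 ± 14.4 (SD, n = 5) against 181 ± 39.2 (SD, n = 6), with a difference of -1.39 ± 0.17 (SE, adjusted p = 1.13e-05). The +22.9 kb element, at the 3' end of Pax6, averaged 19.9 ± 4.63 in p3 and 143 ± 39.5 in p0-1 on day 6, under the filter in that comparison. The +82.3 kb element had means of 2.78 to 31.1 over cell types and days and was never tested.

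In all, 5 of 5 tested Pax6 elements were lower in p3 than p0-1 on day 6 and 0 were higher, while 11.5% of all 32580 elements tested were called lower. On day 5 it was 4 of 6, with 10.7% of all elements called lower, and on day 4 it was 1 of 4, with 2.93%. The median Pax6 difference went from -0.67 on day 4 to -1.21 on day 5 and -1.35 on day 6, against -0.02, -0.01 and -0.08 over all elements. The elements tested differ between the days. Against pMN on day 6, p3 was lower at 3 of 5, with 15% of all elements called lower.

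On day 6 no tested Pax6 element was called between p0-1 and p2 or between p0-1 and pMN. The p2 and pMN samples were not tested against each other. The limma fit called 0 of 6 between pMN and p0-1, where 11.8% of all elements were called, and 0 of 7 between p2 and p0-1, where 5.01% were. All 6 differences of pMN from p0-1 were below 0, with a median of -0.54 against -0.08 over all elements. At an unadjusted limma p under 0.05 there were 4 and 2. The share of all elements at that p is not given, so whether these counts are many cannot be judged. The voom fit on recovered reads called 0 in both. The element at +5.6 kb held 1016 ± 227 (SD, n = 4) in pMN, with a difference from p0-1 of -0.75 ± 0.14 (SE, adjusted p = 0.0028). The +44.2 kb element held 1267 ± 221 (SD, n = 6) in p2 and 737 ± 188 (SD, n = 4) in pMN, with differences from p0-1 of 0.09 ± 0.22 (SE, adjusted p = 0.77) and -0.69 ± 0.26 (SE, adjusted p = 0.0735). The +22.9 kb element, under the filter here, ranged from 30.4 to 51.1 in pMN and 94.2 to 183 in p0-1, without overlap. The threshold of 1 limits these calls, and a difference that misses it does not show that the cells are alike.

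Annotation by nearest TSS leaves part of the Pax6 locus outside this set. The promoter at the 5' end of the Pax6 gene model lies in an element assigned to the antisense transcript Pax6os1 (chr2:105666477-105670017), and 7 further elements upstream are assigned to the noncoding RNA gene Paupar. The Pax6os1 element held 439 ± 53.9 normalized counts in p0-1 (SD, n = 5) and 199.8 ± 20.2 in p3 (SD, n = 4) on day 6, a difference of -1.08 (adjusted p = 2.69e-05). Of these 8 neighbours, 5 were tested on day 6, with 2 lower in p3 and 0 higher. They were looked at after the values of the members were known.

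At Pax3, the element over exon 1 (+0.2 kb, chr1:78195250-78198601) was most accessible in NMPs and stayed highest in p0-1. It held 1133, 1133 and 933 normalized counts in NMPs. On day 6 it was 982, 791, 478, 449.7 and 395 in p0-1, 255, 259, 284 and 246 in pMN and 323, 252, 259.9 and 233 in p3. The 6 p2 samples ranged from 255 to 315. None of these groups overlapped p0-1, whose high samples were those at 0 nM SAG. At 10 nM, the only concentration shared by p0-1 and p2, the values were 478, 449.7 and 395 in p0-1 and 302, 280 and 256 in p2. The differences from p0-1 were -1.02 ± 0.21 (SE, adjusted p = 0.00541) for p2, -1.12 ± 0.25 (SE, adjusted p = 0.00643) for pMN and -1.10 ± 0.25 (SE, adjusted p = 0.0048) for p3. The p2, pMN and p3 ranges overlapped each other. With the replicate number as a block, which the pairing check allows on day 6, the p2 difference was -0.998 and fell short of the threshold of 1. The calls were sensitive to the processing, and with voom on recovered reads the adjusted p was 0.0376 for p2, 0.0372 for pMN and 0.054 for p3. Without replicate 2 these were 0.112, 0.065 and 0.0349.

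The intronic +29.4 kb element of Pax3 (chr1:78167221-78168294) had the largest difference between NMPs and p0-1 among the elements tested at the 3 loci, and the largest between p3 and p0-1 on days 4 and 6. On day 5 Pax6 +44.2 kb had a larger one, -3.09 against -2.83. It was at 32.7, 31 and 43.1 normalized counts in NMPs. In p0-1 on day 4 the lowest, median and highest of 6 samples were 285, 702 and 1023, a rise of 3.76 ± 0.34 (SE, adjusted p = 2.58e-07). The p3 samples of day 4 held 103, 119, 154, 105 and 143, below all p0-1 samples, and the difference was -2.24 ± 0.29 (SE, adjusted p = 8.68e-05). Without replicates 2 and 3 of p0-1 at 10 nM the rise from NMPs was 4.17. With voom on recovered reads the adjusted p was 0.0468 for the rise and 0.0225 for p3 on day 4, which ends both calls. On day 6 the values were 1135, 985, 1044, 1096 and 1307 in p0-1, 487, 513, 422 and 437 in pMN and 90.7, 117, 71.6 and 88.4 in p3. The 3 groups did not overlap, with differences of -1.24 ± 0.10 (SE, adjusted p = 2.20e-05) for pMN from p0-1, -2.20 ± 0.15 (SE, adjusted p = 5.63e-06) for p3 from pMN and -3.44 ± 0.14 (SE, adjusted p = 7.22e-08) for p3 from p0-1. These day 6 calls held under the 11 alternatives that kept the threshold. The p2 mean, 589 ± 126 (SD, n = 6), lay between p0-1 and pMN, with a difference from p0-1 of -0.92 ± 0.13 (SE, adjusted p = 9.91e-04). The change from day 4 to day 6 in p3 minus that in p0-1, -1.21 ± 0.36 (SE, adjusted p = 0.023), was not called.

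Other intronic elements of Pax3 gave different orders of the cell types. The +7.0 kb element (chr1:78189116-78191158) rose in p0-1 from 369.8 ± 99.9 (SD, n = 6) on day 4 to 1024 ± 86.2 (SD, n = 5) on day 6, a difference of 1.47 ± 0.16 (SE, adjusted p = 5.68e-06). In p3 it held 245 ± 61.3 (SD, n = 5) and 327 ± 89 (SD, n = 4), and the change in p3 minus that in p0-1 was -1.08 ± 0.27 (SE, adjusted p = 0.00606). That call was lost under 5 of the 11 alternatives, 1 value per replicate number among them (adjusted p = 0.047). The +25.5 kb element (chr1:78171170-78172136) was lowest in pMN on day 6, at 32.3, 26.3, 27.1 and 29.2, against 124, 122, 114 and 108 in p3 and 220.1, 203, 200.3, 239 and 194 in p0-1. The groups did not overlap, and pMN differed from p0-1 by -2.46 ± 0.13 (SE, adjusted p = 7.19e-06). There p2 held 76.8 ± 23.7 (SD, n = 6), a difference from p0-1 of -1.37 ± 0.18 (SE, adjusted p = 7.39e-04), which was lost under 4 of 11 alternatives, among them without replicate 2 (adjusted p = 0.0689). Thus +25.5 kb and +29.4 kb, in the same intron, had pMN and p3 in opposite order.

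The +56.5 kb element (chr1:78139054-78142319) rose from 208 ± 37.2 (SD, n = 3) in NMPs to 716 ± 299 (SD, n = 6) in p0-1 and 518 ± 106 (SD, n = 5) in p3 on day 4, differences of 1.64 ± 0.29 (SE, adjusted p = 1.66e-04) and 1.25 ± 0.17 (SE, adjusted p = 4.15e-06). It was not called between cell types on day 6, where p3 differed from p0-1 by -0.20 ± 0.26 (SE, adjusted p = 0.583). With voom the rise to p0-1 had an adjusted p of 0.0106. At +86.6 kb p3 was lower on day 5, with a difference of -1.18 ± 0.16 (SE, adjusted p = 3.32e-05) and overlapped p0-1 on day 6, with 84.5 to 226 and 111 to 192. The +126.6 kb element was higher in p3 on day 5, at 196 ± 19 (SD, n = 5) against 87.1 ± 23.8 (SD, n = 6), with a difference of 1.09 ± 0.16 (SE, adjusted p = 6.71e-05). It was the only element called higher in p3 among the 50 in the 3 comparisons of p3 with p0-1, and it was under the filter when that was set over all samples, as was +86.6 kb. At +126.6 kb on day 5, pMN (123 to 149) was above all p0-1 samples and below all p3 samples. The p2 samples (71.4 to 126) overlapped p0-1. On day 6 p3 (63.1 to 165) overlapped pMN (96.8 to 148) at this element.

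The Pax3 elements at -20.0, -3.9, +0.2 and +4.5 kb had their highest group mean in NMPs, whereas those at -6.5 and +7.0 kb had it in p0-1. The elements at -3.9 and +4.5 kb fell from 387 and 223 normalized counts in NMPs to 167 and 53.1 in p0-1 on day 4, differences of -1.16 ± 0.19 (SE, adjusted p = 1.06e-04) and -1.85 ± 0.31 (SE, adjusted p = 9.86e-05). In p3 the -20.0, -3.9, +0.2, +4.5 and +7.0 kb elements fell, so that 5 of 7 tested Pax3 elements were lower on day 4 than in NMPs and 1 was higher, while 25.5% of all elements were lower and 17.5% higher. The median over all elements also fell, by 0.4 to p0-1 and 0.45 to p3 on the log2 scale. With samples centered on their median, 1 of these 5 calls in p3 was kept, that at +4.5 kb.

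One Pax3 element stood out in p3 although it stayed under the filter. At +163.4 kb (chr1:78033096-78034297), shown above with its forkhead match, p3 held 18.2, 20.9, 19.7, 41.5 and 23.2 normalized counts on day 4, 102, 53.5, 82.7, 50.6 and 148 on day 5 and 67.6, 188, 90.1 and 251 on day 6. In p0-1 on day 6 it held 8.24, 9.91, 3.38, 4.66 and 1.94, in pMN 5.38, 5.63, 1 and 9.34, and in p2 between 4.19 and 41.6. All p3 samples of day 6 were above all other NP samples. Its mean over the compared samples did not pass 100, so it was not tested, and it is named here after its values were seen. The highest p2 value came from 100 nM SAG replicate 3, the library that stood apart. At the element nearest the TSS of Foxa2, a floor plate marker, day 6 p3 had a mean of 1662 normalized counts against 261 in p0-1. The forkhead motif was also in the window of Pax3 -3.9 kb. That element went the other way on day 6, with 54.3 to 85.7 in p3 and 92.9 to 150 in p0-1. A part of FOXA2 at either element was not tested.

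**Figure D3:**
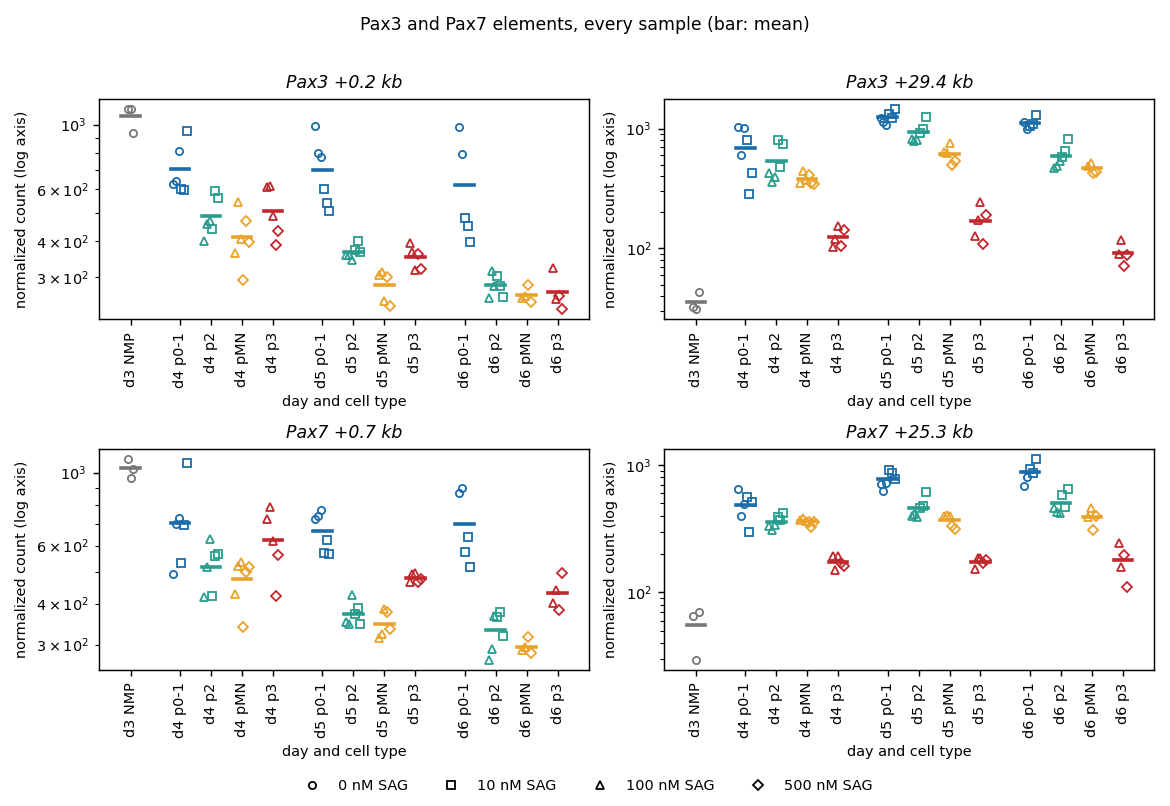
Normalized counts on a log axis for the elements nearest the TSS of Pax3 and Pax7 and for 1 intronic element of each, in every sample, by day (d) and cell type, with bars for the mean. Both intronic elements are low in NMPs and in p3, and both TSS elements are highest in NMPs and, from day 5, in p0-1.

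At Pax7, the element nearest the TSS (+0.7 kb, chr4:139830171-139834335), which spans exon 1, held 1102, 964 and 1026 normalized counts in NMPs. On day 6 it was 866, 897, 576, 638 and 515 in p0-1, 289.6, 295, 317 and 283 in pMN and 401, 438, 382 and 497 in p3. Here pMN had the lowest mean and overlapped neither p3 nor p0-1, while p2 (270.3 to 378) overlapped pMN. The highest p0-1 samples were those at 0 nM SAG. At 10 nM, the only concentration shared with p2, p0-1 held 576, 638 and 515 and p2 held 364, 378 and 319. The differences from p0-1 were -1.17 ± 0.16 (SE, adjusted p = 4.42e-04) for pMN, -1.02 ± 0.15 (SE, adjusted p = 0.00126) for p2 and -0.66 ± 0.17 (SE, adjusted p = 0.00918) for p3. With the replicate block the p2 difference fell just short of the threshold of 1 (adjusted p = 0.00177), and without replicate 2 the adjusted p was 0.101 for p2 and 0.0302 for pMN. The change from day 4 to day 6 in p0-1 was near 0 at this element, and its sign depended on the processing. At -4.0 kb the p3 samples, 411, 480.1, 408 and 558, lay within the range of p0-1, 250.2 to 560.1, while p2 had the lowest mean, 203 ± 39.5 (SD, n = 6). The change there from day 4 to day 6 in p3 minus that in p0-1 was 0.82 ± 0.26 (SE, adjusted p = 0.0297) and was not called.

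The intronic +25.3 kb element of Pax7 (chr4:139807131-139808208) had the order of the cell types seen at Pax3 +29.4 kb. It was at 65.5, 29.7 and 70.0 in NMPs and rose to 485 ± 121 (SD, n = 6) in p0-1 on day 4, a difference of 2.91 ± 0.26 (SE, adjusted p = 2.04e-07). In p3 on day 4 it held 173 ± 19.2 (SD, n = 5), also above NMPs, with a difference of 1.52 ± 0.22 (SE, adjusted p = 7.17e-06). On day 6 its values were 683, 809.9, 928, 873 and 1118 in p0-1, 393, 456, 309 and 401 in pMN and 246, 159, 197 and 111 in p3, and the 3 groups did not overlap. The differences were -1.15 ± 0.15 (SE, adjusted p = 2.87e-04) for pMN from p0-1, -1.11 ± 0.22 (SE, adjusted p = 0.00223) for p3 from pMN and -2.26 ± 0.21 (SE, adjusted p = 6.69e-06) for p3 from p0-1. With 1 SAG concentration per group the first of these was no longer called (adjusted p = 0.0236), and the second was lost under 4 of 11 alternatives, with a difference of -0.63 without replicate 3. The change from day 4 to day 6 in p3 minus that in p0-1 was -0.87 ± 0.28 (SE, adjusted p = 0.033).

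The neighbouring +21.6 kb element (chr4:139810742-139811926) was also higher in p0-1 than NMPs on day 4, and by day 6 it was higher still in every NP type. It rose from 70.7 ± 29.6 (SD, n = 3) in NMPs to 464 ± 53.7 (SD, n = 6) in p0-1 and 205 ± 21.4 (SD, n = 5) in p3 on day 4. The p3 level then rose to 524 ± 44.5 (SD, n = 4) on day 6, with a difference of 1.30 ± 0.11 (SE, adjusted p = 1.57e-06). In p0-1 the samples ranged from 389 to 525 on day 4 and 790 to 978 on day 6, a rise that was not called. The ranges of these days were 284 to 345 and 584 to 732 in pMN, and 269 to 371 and 431 to 562 in p2. The changes in pMN and p2 were not tested. The difference of p3 from p0-1 was -1.13 ± 0.12 (SE, adjusted p = 1.96e-05) on day 4 and -0.73 ± 0.09 (SE, adjusted p = 8.07e-05) on day 6, but the change in p3 minus that in p0-1, 0.39 ± 0.16 (SE, adjusted p = 0.0931), was not called.

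Further into Pax7, the +61.7 kb element (chr4:139770675-139771952) had its highest day 6 mean in pMN. On day 6 it held 213, 213, 212 and 316 in pMN, 132, 191, 133, 97.9 and 150.1 in p0-1 and 52.8, 68.2, 58.9 and 64.1 in p3. The 6 p2 samples ranged from 101 to 257 and overlapped both pMN and p0-1. All pMN samples were above all p0-1 samples, and all p3 samples were below those of the other NPs. The difference of p3 was -1.76 ± 0.17 (SE, adjusted p = 2.64e-05) from pMN and -1.04 ± 0.19 (SE, adjusted p = 0.00109) from p0-1, the latter lost under 6 of 11 alternatives. The difference of pMN from p0-1 was 0.72 ± 0.19 (SE, adjusted p = 0.0179). The +32.1 kb element was lower in p3 than p0-1 on day 5, with a difference of -1.93 ± 0.33 (SE, adjusted p = 2.50e-04), a call lost under 4 of 11 alternatives. On day 6 pMN differed from p0-1 there by -0.995 ± 0.46 (SE, adjusted p = 0.132), and with the replicate block by -1.18 (adjusted p = 0.00945), which is a call. At -43.8 kb p3 held 205 ± 13 (SD, n = 4) against 118 ± 13.3 (SD, n = 5) in p0-1, a difference of 0.75 ± 0.13 (SE, adjusted p = 7.98e-04) that did not reach 1. The -19.2 kb element was highest in NMPs, at 219, 294 and 243, and fell to 64.7 in p0-1 and 48.1 in p3 on day 4, differences of -1.78 ± 0.19 (SE, adjusted p = 1.56e-06) and -2.13 ± 0.19 (SE, adjusted p = 2.65e-08).

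**Figure D4:**
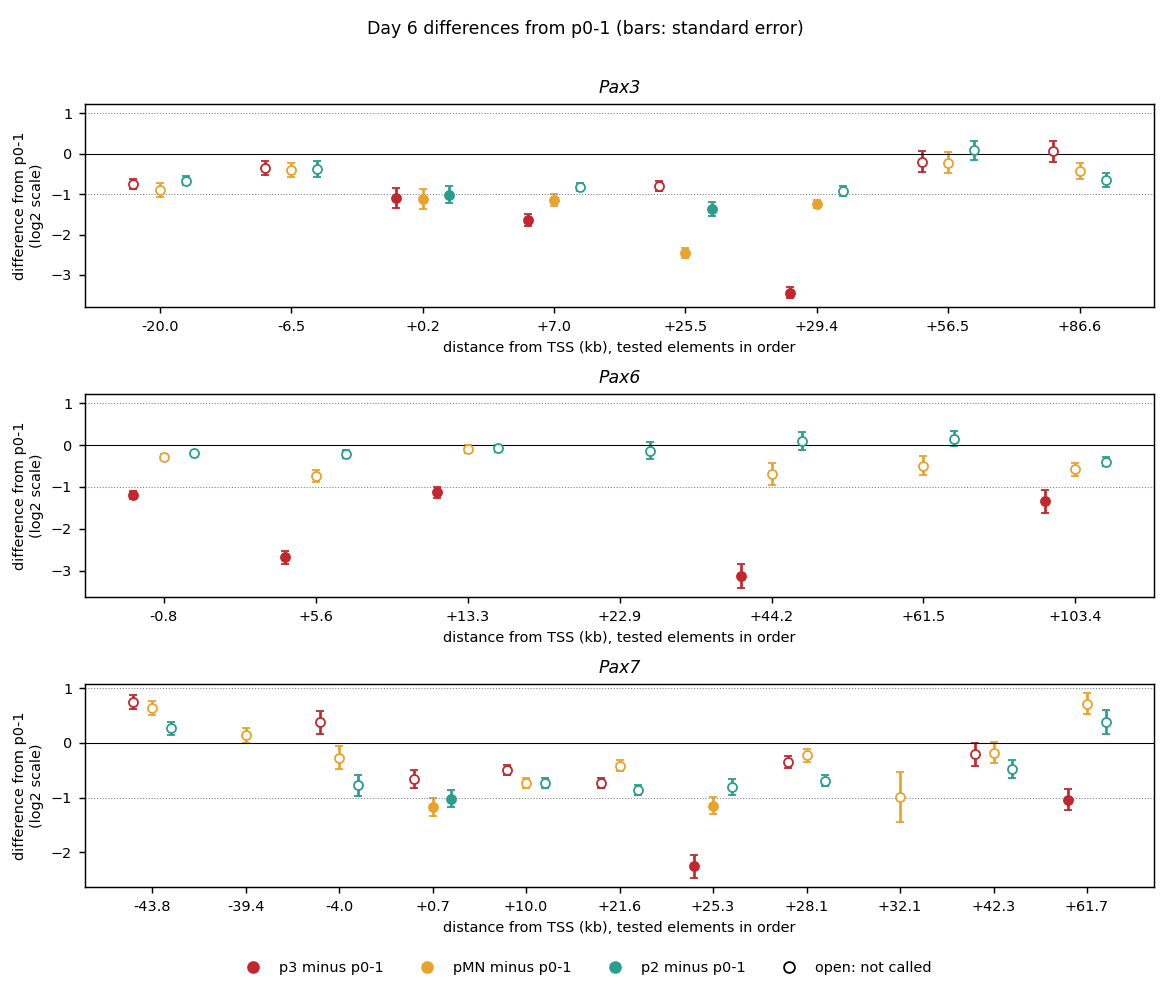
Differences of p3, pMN and p2 from p0-1 on day 6 on the log2 scale (bars, standard error) for the tested elements of each gene in order of distance from the TSS, filled where called. Elements without a point for a cell type were under the filter in that comparison. At Pax6 the filled points are p3 only, whereas at Pax3 and Pax7 the elements at +0.2 and +0.7 kb are filled for pMN and p2.

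Over the 3 loci, 10 of 22 tested elements were called between p3 and p0-1 on day 6, all 10 lower in p3, while 23.1% of all tested elements were called, 11.5% lower and 11.7% higher. On day 5 it was 9 lower and 1 higher of 25, with 10.7% and 6.93% of all elements, and on day 4 it was 4 lower and 0 higher of 20, with 2.93% and 3.07%. Against pMN on day 6, 6 of 22 were lower in p3 and 0 higher, with 15% of all elements lower. For pMN against p0-1 on day 6, 6 of 25 elements were lower and 0 higher, where 2.89% of all elements were called lower and 8.96% higher. In p2 against p0-1, 3 of 24 were lower and 0 higher, where 0.538% of all elements were lower, and 1 of 24 with the replicate block. These 4 Pax3 and 2 Pax7 calls for pMN and 2 Pax3 and 1 Pax7 calls for p2 held no Pax6 element. The comparisons with p0-1 share its samples.

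From NMPs to p0-1 on day 4, 5 elements rose and 3 fell of 20, with 18% and 22.2% of all elements, and the share called in either direction, 8 of 20, was near the 40.2% of all elements. From NMPs to p3, 3 rose and 7 fell of 20, with 17.5% and 25.5% of all elements and 43% in either direction, and 6 were called with samples centered on their median. From day 4 to day 6, 2 of 26 elements rose in p0-1 and 1 of 17 in p3, and 0 fell in either. Of all elements 14.3% rose and 6.59% fell in p0-1 (20.9% in either direction), and 16.1% rose and 6.66% fell in p3 (22.7%). The change in p3 differed from that in p0-1 at 2 of 22 elements, Pax3 +7.0 kb and Pax6 +5.6 kb, both lower in p3, with 9.67% of all elements called, 4.72% lower and 4.95% higher.

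Within p0-1, samples at 0 and 10 nM SAG were compared on days 5 and 6, and no element of the 3 loci passed the adjusted p on either day without the replicate block. This comparison was added after the values were seen. The Pax3 +0.2 kb element held 986, 797 and 773 normalized counts at 0 nM and 604, 540.2 and 506 at 10 nM on day 5. On day 6 it held 982 and 791 at 0 nM and 478, 449.7 and 395 at 10 nM. The concentrations did not overlap on either day, and 0 nM was higher. At Pax7 +0.7 kb the day 6 values were 866 and 897 at 0 nM and 576, 638 and 515 at 10 nM. The reverse was seen at Pax6 +44.2 kb, with 655, 540.0 and 679 at 0 nM and 1071, 989.8 and 1147 at 10 nM on day 5 and 693 and 905 and 1495, 1373 and 1709 on day 6.

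Without regard to the replicate number, limma called 1 of 31401 elements (0.00318%) on day 5 and 0 of 31156 on day 6, although 15.1% and 18.3% had an unadjusted p under 0.05. Samples with the same replicate number deviated together, and the limma fit of day 5 with the number as a block called 0.666% of all elements. No element of the 3 loci passed the difference threshold of 1 on day 5. On the adjusted p alone, which 14.1% of all elements passed, 3 of 6 Pax6 elements were higher at 10 nM and 0 lower, 3 of 9 Pax3 elements lower and 0 higher, and 3 of 9 Pax7 elements lower and 1 higher. The differences of 10 from 0 nM were -0.62 ± 0.05 (SE, adjusted p = 2.23e-05) at Pax3 +0.2 kb and -0.42 ± 0.05 (SE, adjusted p = 2.23e-04) at Pax3 +56.5 kb. At Pax7 they were -0.34 ± 0.06 (SE, adjusted p = 0.0011) at +0.7 kb, -0.42 ± 0.08 (SE, adjusted p = 0.00358) at -4.0 kb and 0.31 ± 0.06 (SE, adjusted p = 0.00429) at +25.3 kb. At Pax6 the difference was 0.77 ± 0.05 (SE, adjusted p = 4.34e-06) at +44.2 kb and 0.31 ± 0.03 (SE, adjusted p = 4.88e-05) at +13.3 kb. Thus within Pax7 the intronic +25.3 kb element and the TSS element moved in opposite directions, and Pax3 +29.4 kb was at 0.23 ± 0.06 (SE, adjusted p = 0.015).

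On day 6, with 2 samples at 0 nM and 3 at 10 nM, the same fit leaves 1 residual degree of freedom, its p-values rest almost wholly on the spread shared by all elements, and they are not given. Its differences were -1.04 at Pax3 +0.2 kb, -0.61 at Pax7 +0.7 kb and 0.94 at Pax6 +44.2 kb, each in the direction of day 5. All 7 tested Pax6 elements were above 0, and 6 of 9 Pax3 and 9 of 11 Pax7 elements were below it.

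**Figure D5:**
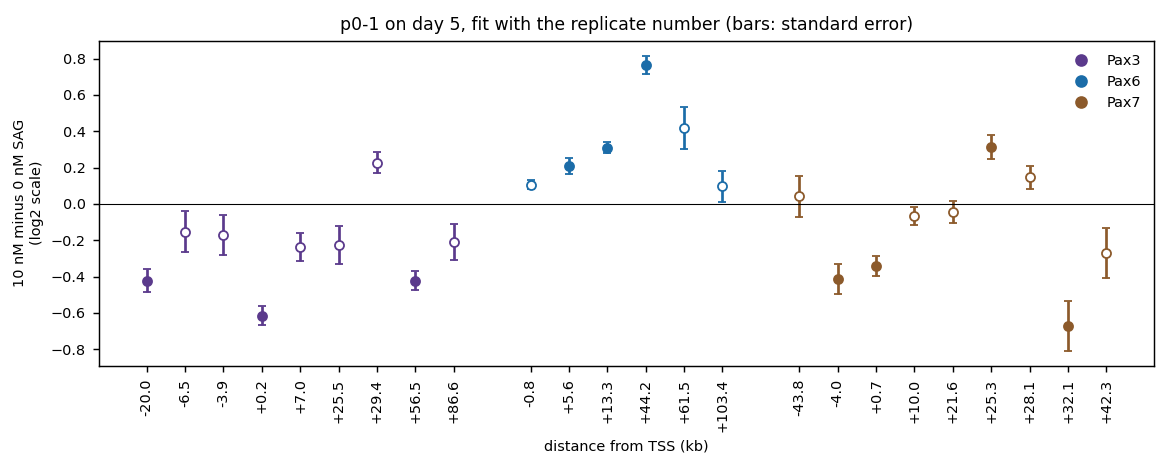
Difference of 10 from 0 nM SAG in p0-1 on day 5 on the log2 scale, from the fit with the replicate number as a block (bars, standard error), for tested elements in order of distance from the TSS in kb, filled at an adjusted p under 0.01. The 6 Pax6 points are above 0, and the Pax3 and Pax7 points nearest the TSS are below it.

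Markers of dorsal cells that the p0-1 gate could hold were read beside these values, from the element nearest each TSS. The summed counts of Msx1, Msx2, Gsx1 and Olig3 on day 6 were 1992 to 2127 at 0 nM and 1852 to 2277 at 10 nM, overlapping. Those of the neural crest markers Sox10, Foxd3, Tfap2a and Tfap2b were 1028 to 1085 and 1116 to 1274. Of these, Foxd3 moved most, with means of 346 at 0 nM and 488 at 10 nM. The means of Sox10 (31.1 and 31.6), Tfap2a (278 and 280) and Tfap2b (401 and 395) were near equal. Between cell types on day 6 the dorsal sum was 1852 to 2277 in p0-1 and 1565 to 1931 in p3, and the neural crest sum 1028 to 1274 and 759 to 786. None of these markers was at 0 in a group mean. The element of Sox10, which defines neural crest, held 31.4 in p0-1 and 22.9 in p3. The part of such cells in the Pax3 and Pax7 differences was not tested.

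The labelled cell types were checked at the elements nearest their markers' TSSs. On day 6 Dbx1 was highest in p0-1 (2549 against 631 normalized counts in p3), and Olig2 was highest in pMN (2325 against 408 in p0-1). Nkx6-1 was 2431 in p2 and 1431 in p0-1, whereas Irx3, listed with it for p2, was 2566 and 3014. Nkx2-9 did not separate p3 (1914) from pMN (2091), and no element was annotated to Nkx2-2, whose protein defined p3. The floor plate markers moved with p3, and their sum on day 6 was 1723 to 2991 in p3 against 514 to 684 in pMN and 511 to 629 in p0-1. The sum of the paraxial mesoderm markers Meox1, Msgn1 and Tcf15 was 1413 to 1577 in p3 and 1062 to 1343 in p0-1 on day 6, but 1384 to 1626 and 1570.4 to 1979 on day 5. On day 6 Meox1 was higher in p3 (856 against 348) and Tcf15 lower (526 against 759). Their part in the p3 differences at the 3 loci was not tested. Neuronal marker sums were 2627 to 3803 in p0-1, 2594 to 5829.8 in p2, 3941 to 4849.8 in pMN and 2985 to 4151 in p3. In NMPs, T was at 1175 and Cdx2 at 3686, each with a higher mean than in any NP group, as was Nkx1-2, but Tbx6 was at 778 in NMPs and 857 in p0-1 on day 6. Pou5f1, of pluripotent cells, was at 1513 in NMPs and 39.8 in p0-1 on day 6.

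Elements of the other Pax genes, Pax1, Pax2, Pax4, Pax5, Pax8 and Pax9, were described by counts for comparison. Of 27 tested on day 6, 2 were called lower and 5 higher in p3 than p0-1. Of 83 tested elements of 9 other dorsoventral factors (Nkx2-9, Nkx6-1, Nkx6-2, Olig2, Irx3, Dbx1, Dbx2, Foxa2 and Gli3), 23 were lower and 29 higher. The list also named Nkx2-2, which had no element. Medians were 0.05 and 0.26, against -0.76 at the 3 loci and -0.08 over all elements. For pMN against p0-1, 1 of 23 elements of the other Pax genes was lower and 1 higher.

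The profile of each TSS element over the 25 condition means was set beside promoter elements of other genes with a mean above 100. For Pax3 the highest Pearson correlations were with Col12a1 (0.954), Prss35 (0.952) and Emx2 (0.934), among 6977 candidates. For Pax7 they were Col12a1 (0.961), Prss35 (0.945) and Trip6 (0.933), so that 2 of the 3 genes were those named for Pax3. For Pax6 they were Klhl5 (0.943), Maob (0.942) and 1700025G04Rik (0.939). Conditions share replicate differentiations, and these correlations are descriptions. Within each locus the correlation with the TSS element ranged from -0.6 to 0.95 at Pax3, -0.07 to 0.93 at Pax6 and -0.63 to 0.97 at Pax7. Near elements of Pax3 differed in it, with 0.95 at -20.0 kb and 0.89 at -3.9 kb but 0.22 at -6.5 kb and 0.35 at +7.0 kb. The intronic elements at Pax3 +29.4 kb (0.08) and Pax7 +25.3 kb (-0.12) were near 0, and Pax6 +44.2 kb was at 0.79.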

How the data were processed

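CaTS-ATAC libraries of 67 samples were processed by the authors with nf-core/atacseq against mm10. Peaks were called with MACS, merged into consensus elements, annotated with HOMER by nearest RefSeq TSS and counted, and the counts were transformed by the authors with the DESeq2 variance-stabilizing transformation. The deposited values are on a log2 scale. Inverting the transformation gave whole reads and normalized counts per element, and 100% of recovered values under 1000 reads were within 1e-06 of a whole number. Reads inside elements numbered 9298160 to 29985325 per sample. Counting error is therefore small above 100 normalized counts and large for elements at a few reads.

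Comparisons were fitted on the deposited log2 values with limma 3.58.1 (R 4.3.3), with a mean trend and Benjamini-Hochberg adjustment over all tested elements. Elements were tested where the mean over the compared samples was above 100 normalized counts, and called at an adjusted p under 0.01 and an absolute difference above 1. Groups follow the labels, and replicate numbers the titles. For some samples the description gives a different replicate number from the title. The replicate block, the replicate means, the leaving out of a replicate number and the pairing check all rest on the titles. On simulated reads for p3 against p0-1 on day 6, 98 of 100 elements changed by 2.5-fold were recovered among 32550 tested. At 4-fold it was 100 of 100, and 0 unchanged elements were called. At 2.5-fold it was 93 of 100 from NMPs to p0-1 and 89 of 100 for the difference of the changes. The simulated samples were independent, with the same dispersion for all elements and no shared replicate deviations. The 0 therefore does not bound false calls in the real samples.

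Whether numbers pair samples was checked by the correlation of same-numbered samples' deviations from their group means. In the day 5 and day 6 comparisons every such pair was over 0.1 (10 of 10 for p3 against p0-1 on day 5, lowest 0.392), so the replicate block is given there where it changes a call. In the day 4 and cross-day comparisons it was not so (7 of 10 for p3 against p0-1 on day 4, lowest -0.461).

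The rule for named elements takes, for each gene, the element nearest the TSS and those with the highest and lowest difference in p3 against p0-1 on day 6, NMP to p0-1 and the difference of the changes. Other elements were named after their values were seen. Members and lists were chosen with earlier results of these data known. The comparison of SAG concentrations was added after the values were seen. Positions of genes are from GENCODE vM21 and sequences from GRCm38.p6. RefSeq promoter windows (GRCm38) matched Pax6 and Pax7, and they held 0 matches to the 6 motifs. Alternatives were a different filter, difference threshold, scale, centering, voom on recovered reads, the block, replicate means, 1 SAG concentration per group and leaving out samples.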

Additional observations from a re-analysis of the deposited data

Results flagged for a closer look

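In 4 of 180 combinations of a named element and a group of 4 to 6 samples, 1 sample lay apart from the others. That is a smaller share than the 1 in 20 or so taken as the chance rate. At Pax6 +103.4 kb, 10 nM replicate 3 of p0-1 on day 4 held 10.6 normalized counts against 101 to 216 in the others, and 100 nM replicate 1 of p3 on day 4 held 6.06 against 73.9 to 82. The first is a library that stood apart as a whole. At Pax7 -43.8 kb, 100 nM replicate 2 of p3 on day 5 held 169 against 212 to 229, and at Pax7 -19.2 kb the same sample held 26.7 against 42.8 to 48.4.

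At 2 elements the change from day 4 to day 6 in p3 differed from that in p0-1 by the test of the difference itself. It was -1.08 on the log2 scale at Pax3 +7.0 kb and -1.59 at Pax6 +5.6 kb. The Pax3 value rests on p0-1 rising from 369.8 to 1024 normalized counts, and it was no longer called when any 1 replicate number was left out.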

How the results depend on the processing

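Of 62 calls at the 3 loci, 28 held under all 11 alternatives that kept the difference threshold of 1. The numbers of elements called moved by over 1.5 times as follows. They are given without the share of all elements called under the same setting. With no filter every element of the 3 loci is tested, so those counts cannot be set beside the counts among tested elements above. With no filter on the mean they were 23 from NMPs to p0-1, 27 from NMPs to p3, 7 between p3 and p0-1 on day 4, 6 from day 4 to day 6 in p3 and 4 for the difference of the changes. With the filter over all samples they were 6 between p3 and p0-1 on day 5 and 2 from day 4 to day 6 in p3. At a difference above 2 they were 3 from NMPs to p0-1, 1 from NMPs to p3, and 1, 3 and 4 for p3 against p0-1 on days 4, 5 and 6. At that threshold they were 2 for p3 against pMN, 1 for pMN and 0 for p2 against p0-1, 1 and 0 from day 4 to day 6 in p0-1 and p3, and 0 for the difference of the changes. Centering gave 6 from NMPs to p3 and 5 from day 4 to day 6 in p3, and voom gave 1 for p2 against p0-1 and 5 from day 4 to day 6 in p3. With 1 value per replicate number there were 0 for p2 and 1 for the difference of the changes, which was also 1 with 1 SAG concentration per group. Leaving out 1 replicate number gave 0 to 2 for p2 against p0-1, 1 to 3 from day 4 to day 6 in p3 and 1 to 2 for the difference of the changes.

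With the replicate block there was 1 call for p2 against p0-1 on day 6, and 7 in place of 6 for pMN against p0-1. From day 4 to day 6 in p3, where numbers do not pair the samples, it gave 2, and at Pax7 +0.7 kb the change in p0-1 was -0.06. In the other comparisons the number of calls was the same with the block.

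Named elements kept direction and side of the threshold in most alternatives, and 18 values of differences that were not called changed sign. At Pax7 +0.7 kb p3 against p0-1 on day 4 was 0.06 without replicate 3 and 0.01 without replicates 2 and 3 at 10 nM. The change there from day 4 to day 6 in p0-1 was -0.01 as a fold of normalized counts, -0.27 centered, -0.33 with voom, -0.04 with 1 value per replicate number, and -0.14 to 0.19 leaving out 1 replicate number. At Pax3 +86.6 kb p3 against p0-1 on day 6 was -0.5 with 1 SAG concentration and -0.37 to 0.57 leaving out 1 replicate number. At Pax3 +0.2 kb p3 against pMN was -0.1 and -0.06 to 0.1 under the same alternatives, and the change in p0-1 was 0.35 with 1 SAG concentration. For the difference of the changes, Pax3 +56.5 kb was -0.02 with 1 SAG concentration and -0.18 to 0.77 leaving out 1 replicate number, and Pax6 +103.4 kb was -1.23 to 0.75, the latter without replicate 3, and 0.2 without replicates 2 and 3 at 10 nM on day 4. The cause was not tested. Elements at a few reads in 1 group have a difference that depends on the transformation.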
